A study of Bos taurus with 81 samples.

Results

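The change in H3K27me3 between the bovine germinal vesicle (GV) oocyte and the 2-cell embryo (2C) was examined in the peak lists of 4 CUT&Tag libraries, 2 from each stage. CUT&Tag tethers a transposase to a chromatin mark through an antibody, so that DNA beside the mark is cut and tagged for sequencing. The members are bins of 5 kb along autosomes 1 to 29. A bin counted as marked in a library where peaks covered 50% of it or more. Bins marked in all 4 libraries were classed as kept, those marked in both GV and no 2C library as lost, and those marked in no GV and both 2C libraries as gained. The classes held 42543 of 497544 autosomal bins. They were drawn from 20331 and 27741 autosomal peaks in the GV lists and 16882 and 17002 in the 2C lists. The 81 lists of the whole series hold 4930009 peaks, a total not limited to this mark or these stages.

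The series profiled H3K4me3, H3K27ac, H3K27me3 and H3K9me3 in bovine oocytes and in vitro produced embryos. GV oocytes came from antral follicles of slaughterhouse ovaries and were taken before in vitro maturation. The 2C embryos were collected 32 h after insemination with thawed semen, following maturation in vitro, and both groups are labelled as untreated controls. After pronase had removed the zona pellucida, each library was made from a pool of roughly 500 oocytes, or of 1000 to 1500 blastomeres for embryos. Breed and the age of the animals are not given in the labels, and nothing there says that replicates came from separate collections, so their spread may be technical. The 2C embryo carries a paternal genome that the oocyte lacks. The peak lists do not separate alleles, and maturation, fertilisation, culture and the first cleavage cannot be told apart in this contrast. Libraries used only for comparison were the 12 of H3K4me3, H3K27ac and H3K9me3 from the same stages, and 14 of H3K27me3 from 4-cell (4C, 44 h), 8-cell (8C, 56 h), 8-cell with 50 μg/ml α-amanitin (8A, 56 h), morula (MO, 122 h) and blastocyst (BL, 172 h) embryos, inner cell mass (ICM) and trophectoderm (TE).

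H3K27me3 is deposited by Polycomb repressive complex 2 and marks developmental genes and broad domains of silent chromatin. In mammalian oocytes it accumulates in wide domains, some of which can pass to the embryo and silence the maternal allele in a form of imprinting that does not use DNA methylation. H3K9me3 is a separate repressive mark, known from heterochromatin and transposable elements, and is usually found apart from H3K27me3. H3K4me3 marks promoters and, in oocytes, also broad domains, and H3K27ac marks active promoters and enhancers.

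About as much of the autosomal sequence lay under H3K27me3 in both oocyte libraries, and far less of it in the embryo libraries. Peaks covered 237.5 Mb and 237.6 Mb in GV replicates 1 and 2, and 110.0 Mb and 131 Mb in 2C replicates 1 and 2. Both 2C values lay below both GV values, and the groups did not overlap. The means were 9.55% ± 0.00197 of the autosomes in GV and 4.84% ± 0.597 at 2C (SD, n = 2 each), a log2 ratio of -0.98. The exact two-sided permutation p was 0.33, the smallest that 2 libraries against 2 allow, and this limit applies to every such comparison here. Library depth is not given. The 1st percentile of the deposited peak score per 200 bp, used as a stand-in for depth, was 3.36 and 3.00 in GV and 1.92 and 2.02 at 2C. It thus moved with stage, and its part in the list lengths was not tested. Several results that could hinge on list length are therefore also given from lists trimmed, lowest score per length first, to the length of the shortest list (110.0 Mb).

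Most oocyte-marked bins were unmarked at 2C. Of 37724 bins marked in both GV libraries, 26960 (71.5%) were lost, 6978 (18.5%) were kept and 3786 (10.0%) were marked in 1 of the 2C libraries. Lost bins made up 5.42% of all autosomal bins, gained bins 1.73% and kept bins 1.4%. The embryo pattern was not merely a subset of the oocyte pattern: of 17518 bins marked in both 2C libraries, 8605 (49.1%) were gained and 39.8% were kept. In sequence this came to 134.8 Mb lost, 34.9 Mb kept and 43.0 Mb gained.

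The spread between replicates sets the scale for these counts. Bins of GV replicate 1 were marked in GV replicate 2 in 77.5% of cases, but in 2C replicates 1 and 2 in 19.3% and 21.6%. Bins of 2C replicate 1 were marked in 2C replicate 2 in 78.4%, and in the GV libraries in 41.9% and 45.2%. Those of 2C replicate 2, the longer list, were found in 2C replicate 1 in 65.3% and in the GV libraries in 39.2% and 41.6%. Each library was thus more like its replicate than like either library of the other stage. Bins just inside the threshold, with 50% to 60% of their length covered, numbered 2936 and 4043 in the GV libraries and 2582 and 2526 at 2C, and those just outside, at 40% to 50%, numbered 4087, 5818, 3839 and 3633 in the same order. In trimmed lists, where all 4 libraries have equal length, 11661 bins were lost, 3662 kept and 11371 gained. Of these, 11356 lost, 3662 kept and 7915 gained bins had the same class in the full lists. Equal list lengths make losses and gains nearly equal by construction, so these counts say nothing of the source of the excess of lost bins. Bins changed place in large numbers in both versions. Without 2C replicate 1 the number of gained bins was 14531.

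Peaks were longer in the oocyte. The median autosomal peak measured 9 kb and 6.4 kb in GV and 5.2 kb and 6.2 kb at 2C. The length-weighted median, the peak length above which 50% of the covered sequence lies, was 13.8 kb and 10.4 kb in GV and 7.4 kb and 8.8 kb at 2C (12.1 kb ± 2.40 against 8.10 kb ± 0.990, SD, n = 2 each; log2 ratio -0.58, exact permutation p = 0.33). The groups did not overlap in either measure, but GV replicate 2 lay close to 2C replicate 2 in the first. Peaks of 10 kb or more held 68.9% and 52.7% of the covered length in GV and 34.3% and 43.4% at 2C. The difference was widest among the longest domains: 209 and 125 peaks reached 50 kb in GV, against 15 and 27 at 2C. The longest single peaks overlapped between stages, at 149.8 kb and 166.8 kb in GV and 152.2 kb and 125.6 kb at 2C. In trimmed lists the log2 ratio of the length-weighted median was -1.15.

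**Figure D1:**
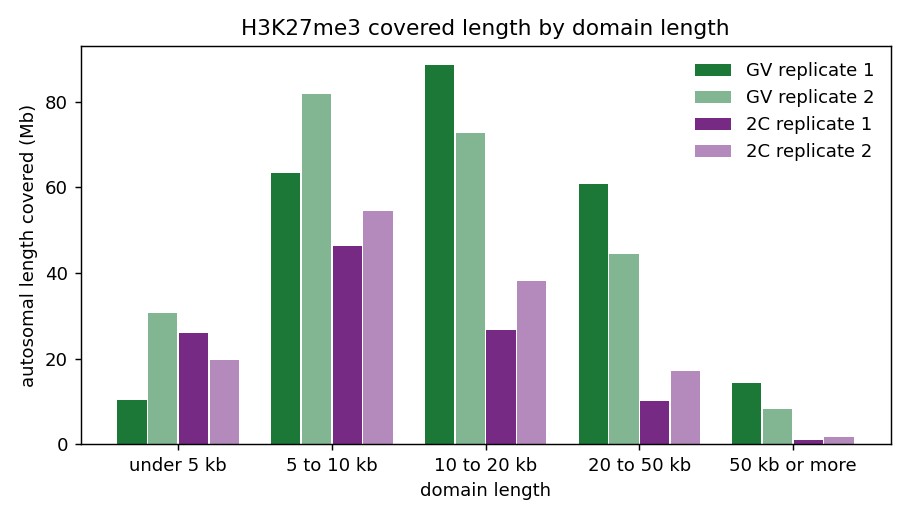
Autosomal length covered by H3K27me3 peaks (Mb, vertical axis) in 5 classes of peak length (horizontal axis), with 1 bar for each of the 4 libraries. Both 2C bars lie below both GV bars in every class from 5 kb upwards, and in the class under 5 kb the stages overlap.

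Most oocyte domains, counted by number, were absent as a whole from the 2C lists, though most of the widest were not. Stretches covered in both GV libraries numbered 21776 and spanned 181 Mb. No base of 14221 of them (65.3%) was covered in either 2C library. Over all stretches, 22.4% and 24.8% of the bases were covered in 2C replicates 1 and 2 (mean 23.6%, and 26.4% in trimmed lists). The untouched share was lower in wider stretches, at 73.6% under 5 kb, 67.4% from 5 to 10 kb, 55.4% from 10 to 20 kb, 37.1% from 20 to 50 kb and 9.89% of the 91 stretches of 50 kb or more. A wider stretch offers more bases to touch. The covered share of bases was also higher in wider stretches, from 17.7% and 18.4% under 5 kb to 37.9% and 43.9% at 50 kb or more. H3K9me3 cover at 2C differed with width too, from 5.04% and 5.70% under 5 kb to 27.7% and 28.6% at 50 kb or more. What part width itself has was not tested.

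Among the 5481 oocyte stretches of 10 kb or more, 3301 (60.2%) held no base covered in both 2C libraries at once. By the stricter measure used above, no base covered in either 2C library, 2774 (50.6%) were untouched. A single piece covered in both 2C libraries lay in 1486 (27.1%), 2 pieces in 515 (9.40%) and 3 or more in 179 (3.27%). Splitting into several pieces was thus less frequent than absence or a single remnant. From edge to centre, in 5 zones of equal length, 2C replicate 1 covered 20.0%, 24.6%, 26.6%, 27.7% and 28.1% of the bases, and replicate 2 covered 23.0%, 28.0%, 30.1%, 31.2% and 31.3%. Cover was lowest in the outermost zone in both libraries. Seen from the embryo, 14291 stretches were covered in both 2C libraries (84.9 Mb), and 46.0% of them had no base under a peak in either GV library.

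Kept, lost and gained bins came mostly in short runs. Single bins made up 62.4% of 4031 kept runs, 50.5% of 12547 lost runs and 62.7% of 5124 gained runs. Runs of 5 or more bins held 16.8% of kept, 28.2% of lost and 13.7% of gained bins. The longest runs reached 150 kb (kept), 175 kb (lost) and 70 kb (gained). Coordinates below are on the ARS-UCD1.2 cattle assembly. Gene annotation of this build was not used here, so the regions are given by position only.

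The longest lost run was on chromosome 18, 12055001 to 12230000. H3K27me3 covered 96.3% and 96.6% of it in GV and 0% and 0% at 2C. H3K4me3 covered 45.1% and 52.2% of it in GV and 39.7% and 34.9% at 2C, and H3K27ac 2.91% and 4.06%, then 16.5% and 21.8%. H3K9me3 was at 0% in both GV libraries and at 6.51% and 3.43% at 2C. The H3K27me3 domain was therefore absent from both 2C lists while much of the H3K4me3 cover was present at both stages. It was seen again later, with 97.9% and 98.1% at MO and 98.4% and 98.5% at BL.

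The other 4 longest lost runs were alike in H3K4me3 and H3K9me3 but not in H3K27ac or later H3K27me3. They lay on chromosome 24 (48545001 to 48710000), chromosome 2 (133940001 to 134065000), chromosome 19 (37845001 to 37965000) and chromosome 29 (46940001 to 47050000). H3K27me3 covered 93.8% to 100% of each in GV and at most 3.64% at 2C. H3K9me3 covered none of the 4 in GV and at most 1.58% of any at 2C, and H3K4me3 covered 38.4% to 58.2% in GV and 38.8% to 54.8% at 2C. Blastocyst H3K27me3 covered 100% and 100% of the run on chromosome 2 and 98.7% and 95.3% of that on chromosome 29, but 25.8% and 18.9% of that on chromosome 24. The run on chromosome 19 was intermediate (57.7% and 58.0%). It also held the most oocyte H3K27ac of the 5, at 54.5% and 55.5% in GV and 16.8% and 25.0% at 2C.

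The longest kept run lay near the low-coordinate end of chromosome 16, from 215001 to 365000. H3K27me3 covered 98.9% and 98.4% of it in GV and 100% and 98.9% at 2C, and between 95.7% and 99.9% in each of the 14 later libraries. The other marks differed between the stages here. H3K9me3 covered 0% and 0% in GV and 85.5% and 84.5% at 2C. H3K4me3 went the other way, with 40% and 60.6% in GV and 0.867% and 0.833% at 2C, and H3K27ac stood at 19.0% and 32.3% in GV and at 0% and 0% at 2C. The longest oocyte stretch, 239201 to 364800 on the same chromosome (125.6 kb), lies inside this run and was covered to 100% and 99.8% in the 2C libraries.

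The other long kept runs fell into different kinds. On chromosome 29 (49470001 to 49545000) H3K9me3 covered 1.07% and 19.7% in GV and 83.7% and 93.1% at 2C, while H3K4me3 covered 69.6% and 79.9%, then 81.2% and 76.1%. This run too was covered by H3K27me3 to 92.3% or more in the MO and BL libraries. Those on chromosome 5 (106545001 to 106625000), chromosome 16 (50350001 to 50425000) and chromosome 14 (13755001 to 13840000) already had H3K9me3 over 91.3% to 100% in GV. At MO, H3K27me3 covered 72.3% and 55% of the run on chromosome 5, 16.3% and 9.33% of that on chromosome 16, and 29.9% and 16.9% of that on chromosome 14. In these 3 runs the mark was thus narrower at MO than at 2C, where it covered 94.1% or more.

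All 5 longest gained runs were H3K9me3 domains in the oocyte. They lay on chromosome 8 (111120001 to 111190000), chromosome 18 (8140001 to 8210000), chromosome 14 (1155001 to 1220000), chromosome 19 (53720001 to 53780000) and chromosome 11 (29450001 to 29505000). H3K9me3 covered 96.3% to 100% of each in GV and 90.2% to 100% at 2C. H3K27me3 covered at most 0.667% of any in GV and 81.1% to 96.7% at 2C. H3K4me3 reached at most 1.21% in any of these runs at either stage. The run on chromosome 18 had H3K27me3 over 98% to 100% at 4C, 8C and 8A and over 0% in all MO, BL, ICM and TE libraries. The run on chromosome 19 differed, with 85.3% and 71% at BL.

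Of the 3 other marks, H3K9me3 had the widest range between the classes. It covered 75.9% and 76.6% of gained sequence in GV and 79.2% and 79.4% at 2C. For lost bins the figures were 0.950% and 0.953% in GV and 1.03% and 1.01% at 2C. All autosomal bins were covered to 7.54% and 7.47% in GV and 5.10% and 5.09% at 2C. Gained bins were therefore 10.2 ± 0.134 times as covered as all bins in GV and 15.6 ± 0.0434 times at 2C, and lost bins 0.127 ± 0.00107 and 0.200 ± 0.00259 times (SD, n = 2 each). The small stage difference at lost bins (log2 0.66) vanished when any covered base marked a bin (0.0047).

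Kept bins lay between these extremes and differed between the stages. H3K9me3 covered 26.6% and 27.5% of them in GV and 44.3% and 45.9% at 2C, although the mark as a whole covered less sequence at 2C. Relative to all bins this was 3.60 ± 0.101 times in GV and 8.85 ± 0.231 times at 2C (SD, n = 2 each), a log2 difference of 1.30. The groups did not overlap (exact permutation p = 0.33, adjusted p = 0.375 over the 9 pairs of class and mark). In trimmed lists that difference was 2.12.

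H3K4me3 was the mark shared by kept and lost bins. It covered 28.0% and 34.2% of lost bins in GV and 25.1% and 24.3% at 2C, and 25.1% and 30.9% of kept bins in GV and 21.1% and 20.0% at 2C. Over all bins it covered 5.67% and 7.08%, then 4.57% and 4.49%. Lost bins thus had 4.89 ± 0.0767 and kept bins 4.40 ± 0.0398 times the cover of all bins in GV, and 5.45 ± 0.0541 and 4.54 ± 0.108 times at 2C (SD, n = 2 each). Gained bins had 0.508 ± 0.00621 times in GV and 0.533 ± 0.0412 times at 2C. The stages overlapped for gained bins (exact permutation p = 1), and the direction of that small difference changed with the settings.

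H3K27ac relative to all bins was higher at 2C than in GV in all 3 classes, but its cover itself was lower at 2C in gained bins. It covered 5.77% and 7.15% of lost bins in GV and 10.9% and 13.7% at 2C, while its cover of all bins was 5.09% and 5.70% in GV and 2.21% and 2.72% at 2C. At lost bins this made 1.19 ± 0.0856 times the cover of all bins in GV and 4.99 ± 0.0481 times at 2C (SD, n = 2 each), a log2 difference of 2.06 (2.61 in trimmed lists). At kept bins the ratio was 0.696 ± 0.0771 in GV and 2.10 ± 0.203 at 2C (log2 difference 1.60), and at gained bins 0.492 ± 0.00473 and 0.731 ± 0.0943 (0.56). Cover itself was 3.26% and 4.28% of kept bins in GV and 4.33% and 6.12% at 2C. Of gained bins it was 2.49% and 2.83% in GV and 1.47% and 2.17% at 2C. The groups did not overlap in the 3 ratios (exact permutation p = 0.33 each, adjusted p = 0.375). In share of bins covered to 50% or more, the log2 difference of the ratio at gained bins had the opposite sign (-0.55). The oocyte log2 ratio at lost bins was then -0.39 in place of 0.25.

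**Figure D2:**
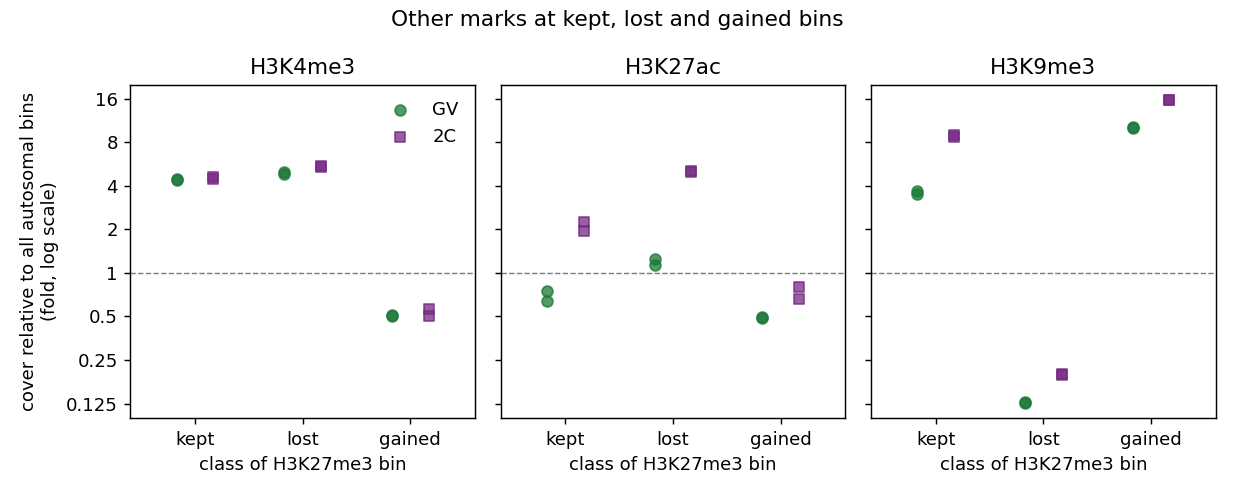
Cover of kept, lost and gained bins by H3K4me3, H3K27ac and H3K9me3, as a multiple of the cover of all autosomal bins in the same library (vertical log axis, 1 point per library, dashed line at 1). H3K9me3 is far above the line at gained and far below it at lost bins, and H3K27ac at lost bins lies near the line in GV and near 5 at 2C.

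Bins that started with H3K4me3 were also examined by class. In the 5031 lost bins that H3K4me3 covered to 50% or more in both oocyte libraries, H3K27ac covered 12.3% and 14.6% in GV and 26.7% and 33.9% at 2C. In the 1531 such kept bins it covered 7.14% and 9.03%, then 11.8% and 16.7%. In the 4276 such bins without H3K27me3 in any of the 4 libraries, cover went from 47.8% and 51.2% in GV to 25.8% and 32.1% at 2C. In the 124 such gained bins it went from 42.0% and 45.2% to 7.31% and 11.3%, opposite to kept and lost bins. Among H3K4me3 bins of the oocyte, H3K27ac cover in GV was therefore lower in kept and lost bins than in the others, and at 2C lost bins and bins never marked had similar cover. H3K9me3 over these kept bins was 5.06% and 7.14% in GV and 56.5% and 58.6% at 2C, against 0.169% and 0.153%, then 1.902% and 1.894%, over these lost bins.

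H3K27me3 domains thus lay in different chromatin at the 2 stages. Of the H3K27me3-covered length, 6.61% and 7.28% was also under H3K9me3 in the GV libraries, and 56.3% and 57.3% at 2C (means over both H3K9me3 libraries of the stage). That is 0.926 ± 0.0635 times the autosomal cover of H3K9me3 in GV and 11.1 ± 0.141 times at 2C (SD, n = 2 each; exact permutation p = 0.33). The log2 ratio of the share itself was 3.03, and 3.58 in trimmed lists. In the oocyte H3K27me3 therefore met H3K9me3 about as often as cover alone gives, and in the embryo far more often. The share under H3K4me3 was 29% and 27.9% in GV and 9.23% and 9.68% at 2C. Each list comes from a pool of cells, so overlap does not show that both marks sit on the same chromosome copy.

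Bins were also sorted by the other marks of the oocyte, independently of H3K27me3. A mark counted as present where both GV libraries reached the cover used above to mark a bin. Otherwise it counted as absent, so an absent mark could still have lower cover or cover in a single library. Of 30078 bins with H3K9me3 and without H3K4me3 by this rule, 8.82% and 9.94% had H3K27me3 in GV and 34.6% and 43.3% at 2C. This was the state in which H3K27me3 was more frequent in the embryo (log2 ratio 2.05, exact permutation p = 0.33). It contained 76.8% of the gained bins. Of its 2090 bins with H3K27me3 in both GV libraries, 82.0% were kept and 7.42% were lost.

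H3K4me3 bins went the other way. Of 12836 bins with H3K4me3 and without H3K9me3 in the oocyte, 62.2% and 58.7% had H3K27me3 in GV and 14.5% and 18.3% at 2C (log2 ratio -1.88, exact permutation p = 0.33). Of the 7233 with H3K27me3 in both GV libraries, 20.1% were kept and 69.5% lost. Bins with none of the 3 marks by the same rule were by far the most numerous (444143, 89.3% of all bins). They held a smaller share of the lost bins, 80.0%. This does not mean that these lost bins lacked H3K4me3 altogether. Of all lost bins, 78.7% and 82.4% held some H3K4me3-covered base in the GV libraries, against 21.7% and 23.7% of all bins. The bins with none of the 3 marks had H3K27me3 in 8.43% and 8.54% of cases in GV and 2.23% and 2.52% at 2C. Of the 28088 marked in both GV libraries, 13.2% were kept. The 10402 bins with H3K27ac alone were seldom marked, at 4.70% and 2.32% in GV and 1.18% and 1.55% at 2C. In trimmed lists the log2 ratios were 3.71 for H3K9me3 bins and -1.67 for H3K4me3 bins, in the same directions. Trimming first removes low-scoring GV peaks, which held more H3K9me3, so the larger ratio at H3K9me3 bins is not separate support.

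**Figure D3:**
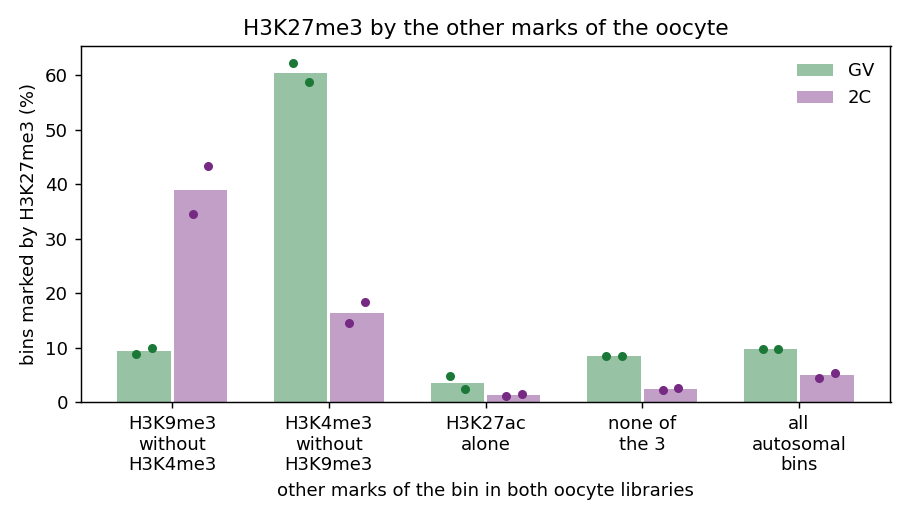
Percentage of 5 kb bins marked by H3K27me3 (vertical axis) in GV and 2C, for bins grouped by the other marks present in both oocyte libraries; bars are means of 2 libraries and points are the libraries. Only the group with H3K9me3 without H3K4me3 is higher at 2C, among the 5 groups drawn.

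The H3K9me3 seen at kept bins at 2C was in part absent from the same bins in GV. Of the 6978 kept bins, 19.1% had H3K9me3 in all 4 libraries of that mark, 20.1% had it in no GV and both 2C libraries, and 36.9% in none. Over all autosomal bins 0.668% (3326) had H3K9me3 in no GV and both 2C libraries. Of those, 42.2% were kept H3K27me3 bins, 16.5% gained and 1.83% lost ones, against 1.4%, 1.73% and 5.42% of all bins. H3K27me3 marked 53.5% and 51.7% of these 3326 bins in GV and 66.4% and 76.2% at 2C, against 9.78% and 9.80%, then 4.49% and 5.39%, of all bins. Bins with H3K9me3 new at 2C thus had H3K27me3 several times as often as all bins did, at both stages. Among lost bins 97.7% had H3K9me3 in no library, near the 89.0% of all bins and far above the kept bins. Among gained bins 70.5% had it in all 4, against 3.02% of all bins.

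The kept bins with new H3K9me3 also differed from other kept bins in the later libraries, which the classes did not use. H3K27me3 marked 99.1% and 98.4% of them at 4C, 86.1% and 84.1% at MO and 88.6% and 88.0% at BL. Kept bins with H3K9me3 at both stages were marked in 99.4% and 98.8% at 4C, but in 33.8% and 31.0% at MO. Kept bins with H3K9me3 at neither stage were marked in 40.4% and 39.3% at 4C and in 41.0% and 39.2% at MO. Oocyte H3K4me3 covered 50.2% and 59.9% of the first group, 5.50% and 7.22% of the second and 20.8% and 26.5% of the third.

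The difference between the stages was unequal among the chromosomes. Both 2C libraries lay below both GV libraries on 28 of 29 autosomes (96.6%). By limma on log2 covered percentage with Benjamini-Hochberg adjustment, H3K27me3 fell on 27 (93.1%) and rose on 0 (0%); at an unadjusted p under 0.05 the counts were also 27 and 0. The chromosomes share the same 4 libraries, so these tests are not independent of each other. The fit gave every chromosome the same SE (0.14), pooled over all of them. Its p-values rest on that pooled spread and not on the replicates of each chromosome alone. A shift of a whole library also enters every chromosome. For the total covered length the exact permutation p was 0.33. In trimmed lists 8 chromosomes were lower and 7 higher at 2C, where equal list lengths make a near balance by construction. Chromosomes differed from each other in both versions.

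Chromosome 24 had the largest fall, from 10.9% and 11.3% covered in GV to 2.67% and 3.08% at 2C (log2 change -1.95 ± 0.14, the pooled SE). Chromosomes 27 and 12 followed, the first with 10.5% and 10.7% in GV and 2.63% and 3.23% at 2C (-1.86), the second with 8.32% and 8.67%, then 2.18% and 2.53% (-1.85). On these 3 chromosomes both 2C values lay far below both GV values. At the other end, chromosome 22 was covered to 6.88% and 6.33% in GV and 5.68% and 7.16% at 2C, where the groups overlapped (log2 change -0.05 ± 0.14, limma adjusted p = 0.731). Chromosome 7 had 5.55% and 5.07%, then 3.99% and 4.99% (-0.25, limma adjusted p = 0.0854), and chromosome 25 had 15.0% and 13.8%, then 9.56% and 11.9% (-0.44, limma adjusted p = 0.00335). In trimmed lists chromosomes 24, 27 and 12 remained lower at 2C (-1.11, -0.66 and -0.65), whereas chromosomes 22, 7 and 25 were higher (0.72, 0.96 and 0.65).

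After each library was centred on its mean over chromosomes, 8 autosomes (27.6%) departed downwards and 14 (48.3%) upwards (limma, adjusted p under 0.05). This fit too had the same pooled SE for all chromosomes (0.06). The upward count was 7 without 2C replicate 1 and also 7 without 2C replicate 2. Chromosome 22 had the most gained bins for its lost bins, 89.9 per 100, followed among the named chromosomes by chromosome 7 (86.5), whereas chromosome 24 had 9.32 and chromosome 12 had 11.3. The kept share of oocyte-marked bins was 29.2% on chromosome 22 and 8.52% on chromosome 24.

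Chromosomes with more oocyte H3K9me3 had more gained bins. Over the 29 chromosomes the covered percentage of H3K9me3 in GV and the percentage of bins gained had a Pearson r of 0.94 and a Spearman rho of 0.89. The gained percentage also had an r of 0.81 with oocyte H3K4me3, 0.79 with H3K27ac and 0.59 with H3K27me3 cover, so this relation was not limited to H3K9me3. Between oocyte H3K9me3 and the log2 ratio of H3K27me3 cover the values were 0.58 and 0.59. Chromosome length and the log2 ratio gave 0.01 and -0.08. These are descriptions over chromosomes that share libraries and differ in composition, with no test.

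**Figure D4:**
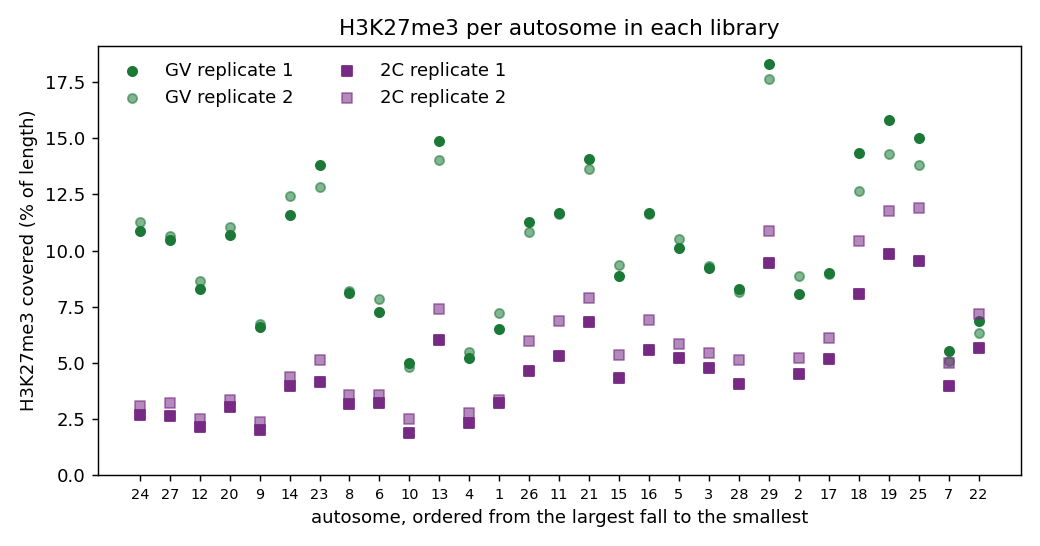
Percentage of each autosome covered by H3K27me3 (vertical axis) in both libraries of each stage, with chromosomes ordered from the largest to the smallest fall. The stages are far apart on chromosomes 24, 27 and 12 and overlap on chromosome 22.

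On a finer scale, 1723 windows of 1 Mb had a mean cover of at least 1% and were tested with limma on log2 of the covered percentage plus 1. H3K27me3 fell in 1035 windows (60.1%) and rose in 195 (11.3%), at an adjusted p under 0.05. The log2 changes are on the scale of percentage plus 1, which understates those of thinly covered windows, and their median was -0.94. In trimmed lists 309 of 1347 windows were lower and 458 higher, with a median of 0.36. After centring each library on its mean, 527 were lower and 517 higher. Fewer windows passed with 1 library left out: 513 lower and 88 higher without GV replicate 1, 444 and 77 without GV replicate 2, and 920 and 91 without 2C replicate 2. Losses and gains thus both occurred at this scale, and the balance between them differed with the scaling, which sets it in part by construction.

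The window with the largest fall was on chromosome 23 (45000001 to 46000000), with 42.7% and 40.1% covered in GV and 0% and 0% at 2C (log2 change -5.41, limma adjusted p = 3.62e-05). The next 4 were on chromosome 14 (76000001 to 77000000), chromosome 11 (8000001 to 9000000), chromosome 12 (82000001 to 83000000) and chromosome 17 (49000001 to 50000000), with 31.3% to 45.4% covered in GV and at most 1.16% at 2C. In these windows H3K27me3 was nearly absent over a full megabase in both embryo libraries. The window with the largest rise was on chromosome 10 (80000001 to 81000000), with 0% and 0% in GV and 8.72% and 11.1% at 2C (3.44, limma adjusted p = 9.43e-05). The next 4 were on chromosome 5 (71000001 to 72000000), chromosome 18 (35000001 to 36000000), chromosome 15 (64000001 to 65000000) and chromosome 1 (68000001 to 69000000), with at most 1.42% in GV and 5.94% to 18.0% at 2C. The 5 windows with the largest rises on this log2 scale therefore reached lower cover than the 5 with the largest falls had in GV. Ranking on that scale favours windows near 0% in GV, so other windows may have larger rises in covered percentage.

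Along the chromosomes, H3K27me3 was densest toward the high-coordinate end at both stages. In the last of 10 equal segments, counted from the low-coordinate end, 27.4% and 26.6% of bins were marked in GV and 12% and 14.7% at 2C. The fourth segment had 5.02% and 4.95%, then 1.96% and 2.34%. The last segment held 34.6% of kept, 30.8% of lost and 27.3% of gained bins. Of its bins marked in both GV libraries 20.3% were kept, against 23.6% in the first segment and 9.91% in the fourth. H3K9me3 was densest in the last segment as well, which it covered to 16.2% and 16.9% in GV and 15.2% and 14.8% at 2C.

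The classes were then followed in the later H3K27me3 libraries. Few lost bins were marked in the early cleavage stages, with 4.62% and 3.59% marked at 4C and 4.79% and 4.78% at 8C. All bins, which include kept and gained ones, stood somewhat higher (6.46% and 5.93%, then 5.67% and 5.78%). Bins marked in no GV or 2C library stood lower, at 2.22% and 1.91%, then 1.97% and 2.05%. At MO 45.8% and 43.1% of lost bins were marked, and at BL 59.4% and 60.6%. There all bins stood at 6.70% and 6.09%, then 11.2% and 11.6%. Of the lost bins, 9002 (33.4%) were marked in no 4C or 8C library and in both MO libraries. Another 8626 (32.0%) were marked in none of the 4C, 8C, MO and BL libraries. Over all autosomal bins these shares were 3.61% and 80.4%. In both BL libraries 56.4% of lost bins were marked, against 10.0% of all bins. ICM and TE were alike at lost bins, with 57.4% and 56.4% in ICM and 57.1% and 58.5% in TE, where all bins stood at 10.1% and 10.1%, then 11.0% and 11.5%.

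Gained bins had the opposite course. They were marked in 90.4% and 88.5% of cases at 4C and 81.4% and 81.7% at 8C, but in 8.47% and 7.79% at MO and 20.9% and 19.8% at BL. In both 4C libraries 85.8% were marked, and in no MO library 90.0% were. Gained H3K27me3 was thus found in most of these bins over the cleavage stages and in few at MO. ICM had 10.4% and 11.4% and TE 21.1% and 21.2% of gained bins marked, and the groups did not overlap. The ICM values were near the share of all bins given above.

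Kept bins were marked in 72.9% and 71.5% at 4C, 67.0% and 67.4% at 8C, 51.6% and 49.4% at MO and 59.5% and 59.1% at BL. At MO both values lay above those of lost bins, and at BL the values of kept and lost bins overlapped. Of the kept bins 2161 (31.0%) were marked in every 4C, 8C, MO and BL library, and 829 (11.9%) in none of them, against 0.730% and 80.4% of all bins. Of the H3K4me3 bins of the oocyte described above, 65.2% and 63.0% had H3K27me3 at MO and 78.6% and 77.7% at BL, against 7.04% and 6.19%, then 17.8% and 17.1%, of the H3K9me3 bins. From trimmed GV and 2C lists, 68.4% of lost bins were marked at MO and 81.8% at BL.

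**Figure D5:**
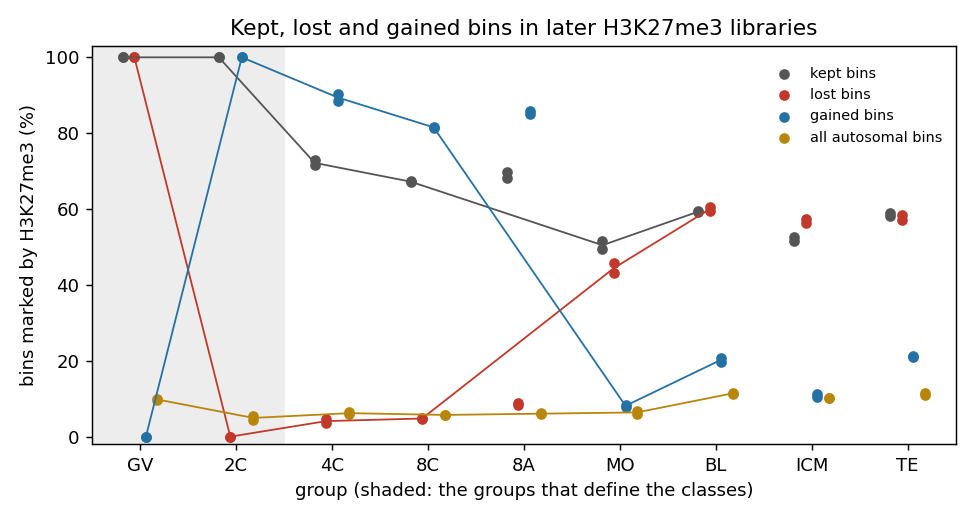
Percentage of kept, lost, gained and all autosomal bins marked by H3K27me3 (vertical axis) in each library of 9 groups (points), with lines through the means of GV, 2C, 4C, 8C, MO and BL; shading marks the groups that define the classes. From 4C to 8A lost bins lie between 3.59% and 8.99% and gained bins between 81.4% and 90.4%; from MO on lost bins lie at 43.1% or above and gained bins at 21.2% or below.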

How the data were processed

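CUT&Tag peak lists of 30 libraries were used: the 4 compared, 12 of other marks and 14 of H3K27me3 at later stages. A deposited list holds a position, a name and a whole-number score for every peak, and the authors called peaks library by library. The deposited score has no stated meaning and served only to order peaks within a list and to give the stand-in for depth. Per the submitters' processing notes, reads were handled with BWA 0.7.9a, SAMtools 1.9, Picard 2.26.10, cutadapt 1.8.3, Trim Galore 0.4.0 and SICER (roles and order are not listed), on build ARS-UCD1.2. The lists bear the name of the caller epic2, so the caller was not settled, and its thresholds and any control library were not given in the sources used here. H3K27me3 edges lie on a 200 bp grid with gaps of at least 1200 bp, so a domain broken by a smaller gap is listed as 1 peak. List length can vary with sequencing depth, which is unknown.

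Cover was computed in Python 3.11.15 with NumPy 2.4.6 and pandas 2.3.3, over 2487.64 Mb of autosomes reaching to the highest peak end. Groups came from the library titles, with 2 libraries each. Single values were compared by exact two-sided permutation tests. Chromosomes and 1 Mb windows were fitted with limma 3.58.1 in R 4.3.3 (pseudocount of 1% in windows, windows of at least 1% mean cover), with Benjamini-Hochberg adjustment and a threshold of 0.05. The window fit was run on simulated windows with independent noise of equal size and no shift of whole libraries. That run therefore does not show how the fit behaves where spread varies or whole lists differ. Regions named are the 5 longest runs of each class, the longest stretch, 3 chromosomes at each end and 5 windows at each end. The members, lists and regions were chosen with earlier results of these data known. The sorting by oocyte marks and the H3K27me3 length inside other marks were added after the data were seen. Alternatives were bin size, the cover that marks a bin, trimmed, stricter and joined lists, other window settings, a replicate block and leaving out each library. For other marks at the bin classes, the same-numbered library of the other mark at that stage was left out too, although nothing pairs them. X and unplaced scaffolds entered only alternative values of covered length (log2 ratio -0.97 with X and -0.95 with X and unplaced scaffolds). ATAC-seq and gene annotation were not used here.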

Additional observations from a re-analysis of the deposited data

How the results depend on the processing

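Among alternative values of the results that answer a comparison, 246 were labelled as the same, 52 as moved and 4 as reversed. For results with an exact permutation test the label could follow direction only, since p cannot fall below 0.33 (0.5 with a replicate block). A value of the same sign there counted as the same whatever its size. Counts and shares were judged by size, and bin counts also change with the bin size itself. The log2 ratio of covered length ranged from -1.11 to -0.86 and that of the length-weighted median from -1.15 to -0.36. Kept, lost and gained bins numbered 17466, 65799 and 21517 in 2 kb bins and 3181, 13671 and 3814 in 10 kb bins. Marking at 75% cover gave 3955 kept and 5413 gained bins, and marking at any covered base 12489 and 13244. Trimmed lists gave 3662 kept and 11661 lost bins. Without 1 library, gained bins ranged from 9304 to 14531.

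Oocyte stretches were covered at 2C to 23.6% on average, to 26.4% in trimmed lists, and to 20.3% to 24.8% without 1 library. Lost bins marked at MO were 44.5%, with 46.5% for marking at any base, 68.4% in trimmed lists and 36.1% to 44.8% without 1 library. At BL they were 81.8% in trimmed lists, 61.2% without the lowest-scoring 25% of peaks and 50.1% to 59.9% without 1 library. Gained bins marked at 4C were 89.4%, with 85.2% in trimmed lists and 78.2% to 88.1% without 1 library. At MO they were 8.13%, with 9.14% for marking at 25% cover, 6.79% at 75%, 10.2% at any base, 10.7% in trimmed lists, 7.502% without the lowest-scoring peaks and 7.59% to 9.07% without 1 library.

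The log2 difference of H3K4me3 at gained bins (0.07) was -0.11 in trimmed lists, -0.52 in share of bins covered to 50% or more, and -0.013 without GV replicate 1, in a range of -0.013 to 0.053 without 1 library. In the same share of bins, the H3K27ac difference at gained bins was -0.55 and the oocyte log2 ratio of H3K27ac at lost bins was -0.39 (0.25 by cover). The cause of these reversals was not tested. For other marks at the bin classes, leaving out 1 H3K27me3 library also left out the same-numbered library of the other mark at that stage. The H3K9me3 differences, the contrast between oocyte states and the H3K27me3 length inside H3K9me3 kept their direction in every alternative run, but the H3K9me3 difference at lost bins (0.66) was 0.0047 when any covered base marked a bin (exact permutation p = 1), 0.23 without GV replicate 1 and 2.18 in trimmed lists.

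In trimmed lists 8 chromosomes were lower at 2C and 9 departed upwards from the autosomal mean. Without 1 library, 7 to 12 departed upwards. Windows lower and higher were 309 and 458 in trimmed lists, 1659 and 399 in 500 kb windows, 527 and 517 after centring, and 444 to 920 and 77 to 141 without 1 library, where the lone library of a stage is assumed to vary like those of the other.

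Replicate numbers are shared by the groups, but nothing in the labels pairs them. The correlation of deviations of same-numbered libraries was -0.26 over 1723 windows. With a replicate block the log2 ratio of covered length was -0.99 (exact permutation p = 0.5, the smallest possible), 27 chromosomes were lower, 9 departed upwards from the autosomal mean, and 1022 windows were lower and 187 higher.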

Other observations

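Within each oocyte library, peaks with a higher score for their length were covered more at 2C. In GV replicate 1, 2C replicates 1 and 2 covered 23.9% and 27.6% of the length in the 25% of peaks with the highest score per 200 bp, and 16.4% and 17.0% in the lowest 25%. In GV replicate 2 the values were 26.7% and 30.5%, then 16.8% and 17.1%. H3K4me3 covered 42.7% and 50.9% of the highest 25% in GV replicate 1 and 8.93% and 11.5% of the lowest. H3K9me3 went the other way, with 4.60% and 5.11%, then 9.66% and 9.15%.

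Gained bins lay nearer to oocyte H3K27me3 than bins never marked. A bin marked in GV was within 10 kb of 24.7% of gained bins and of 12.5% of bins marked in no library, and within 50 kb of 62.9% and 32.3%. These are values with no test.

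Lost bins were marked in 8.46% and 8.99% of cases in 8-cell embryos grown with α-amanitin and in 4.79% and 4.78% in control 8-cell embryos. Gained bins were marked in 85.0% and 85.8% against 81.4% and 81.7%. The groups did not overlap in either class, and the difference was not tested. Over all bins the values were 6.02% and 6.34% against 5.67% and 5.78%.

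The 61 lost bins that had H3K9me3 new at 2C stood apart from other lost bins: H3K27me3 marked 85.2% and 82.0% of them at 4C and 86.9% and 83.6% at MO, against 3.65% and 2.68%, then 45.7% and 42.9%, for lost bins with H3K9me3 at neither stage. This small group was chosen after its values were seen.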
